A study of Mus musculus with 9 samples.

Results

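The circRNAs of 49 listed genes that build the centrosome and the mitotic spindle, or that are known for inherited microcephaly, were followed through 3 cell types of the developing mouse cortex. A circRNA was included when its parental gene was on the list, whatever its level. This gave 69 of the 5281 circRNAs in the count table, from 28 of the 49 genes. Of the genes that act at centrioles and pericentriolar material, 10 of 16 had 1 or more circRNAs (23 circRNAs). The corresponding numbers were 5 of 10 genes for the spindle (15 circRNAs), 7 of 12 for the kinetochore and the spindle checkpoint (19), 2 of 6 for chromosome condensation and separation (3) and 4 of 5 for cytokinesis (9). Cdca3, a trigger of mitotic entry, was counted under condensation and separation. Across these roles, 9 of the 15 microcephaly genes contributed 21 circRNAs. For the other 21 genes, among them Pcnt, Plk4, Wdr62, Cep152, Aurka and Ttk, no circRNA was analysed here.

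Cells were sorted from the lateral cortex of E14.5 embryos (C57BL/6) from dams that were double heterozygous for the Btg2-RFP and Tubb3-GFP reporters, and the genotype of the embryos themselves was not stated. Proliferative progenitors (PP) were RFP-/GFP-, differentiative progenitors (DP) were RFP+/GFP-, and newborn neurons (N) were GFP+ irrespective of RFP, with 3 libraries each. By these gates PP could hold any reporter-negative cell of the tissue. RNA was treated with RNase R, which degrades linear RNA, and sequenced in strand-specific libraries without selection of mRNA. The authors describe the 3 libraries of each cell type as biological replicates. What these replicates share (animals, litters or pools) was not stated, so that p-values measure only the spread between these libraries.

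Centrioles organize the pericentriolar material from which spindle microtubules grow, and kinetochores attach chromosomes to those microtubules under the watch of the spindle checkpoint. In the developing cortex, progenitors divide at the ventricle and in the subventricular zone, whereas newborn neurons have left the cell cycle and use their centrosome in migration and axon growth. Mutations in many centriole and spindle pole genes cause primary microcephaly in humans, a small but otherwise well-formed brain.

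The libraries were shallow for these RNAs. A group of 27 entries, 26 of them on chromosome 17, held all but 1.78 to 5.35% of each library's counts, and the counts outside them ranged from 83572 (PP replicate 3) to 287983 (N replicate 2). The median count of the 69 circRNAs was 13, 23 and 9 in the PP libraries, 32, 29 and 29 in the DP libraries and 1, 6 and 6 in the N libraries. Levels are given as counts per 1000000 of the effective library size (CPM). The level that 3 counts stand for was lowest in DP replicate 1 (0.340 CPM) and highest in PP replicate 3 (1.39 CPM). PP replicate 3 and N replicate 1 stood apart from their groups. Spearman's rho over circRNAs was 0.703 and 0.713 between PP replicate 3 and the other PP libraries, against 0.922 between those 2, and 0.794 and 0.831 between N replicate 1 and the other N libraries, against 0.947. Counts of calls are therefore also given without them.

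The sorted populations were checked against marker genes that have circRNAs. For PP these were Fgfr2, Gli3, Notch1 and Ptprz1 (13 circRNAs), whose summed level was 287.8, 310.5 and 382 CPM in PP, 114, 146 and 119 CPM in DP and 59.4, 80.7 and 69.9 CPM in N. The most abundant circRNA of these came from Ptprz1, and the summed levels of the 3 cell types were separated, highest in PP and lowest in N. For N, the most abundant marker circRNA came from Bcl11b, a transcription factor of subcerebral projection neurons (CiCo_mm9_circ_001255), at 1.30, 1.13 and 7.90 CPM in PP, 7.93, 6.91 and 10.6 CPM in DP and 146, 44.4 and 67.3 CPM in N. A circRNA of Myt1l, a neuronal transcription factor (CiCo_mm9_circ_001319, chosen after its values were seen), had 0.260, 0.323 and 1.39 CPM in PP, 6.12, 6.91 and 6.96 CPM in DP and 36.8, 52.7 and 47.7 CPM in N. Both were highest in all N libraries, and PP replicate 3 was the highest PP library for each, overlapping DP for Bcl11b. Markers of DP, endothelium, microglia, interneurons, mural cells and blood had no circRNA analysed, so that such cells could not be checked for.

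A circRNA is defined by its back-splice junction, where the end of a downstream exon is joined to the start of an upstream one. The junctions of the most abundant circRNA of each microcephaly gene, and of Nin, the gene whose circRNA moved against the others, were read from the mm9 genome at the deposited coordinates. The end of the last exon is in lower case and the start of the first exon in capitals.
Aspm (CiCo_mm9_circ_000092, chr1:141386223-141388271, + strand, exons 23 to 26 of 28): gagcagtgtgcttttAGATGGTTTCGAAAA
Nde1 (CiCo_mm9_circ_002272, chr16:14175384-14185966, + strand, exons 4 to 6 of 9): gaatgttcagacgtgGAGAAGTTTGAGATG
Casc5 (CiCo_mm9_circ_003381, chr2:118902672-118907361, + strand, exons 9 to 11 of 23): acaaaagattgacgaCACAGCGTAATAGCC
Stil (CiCo_mm9_circ_004259, chr4:114675453-114688892, + strand, exons 2 to 10 of 17): tcttccagtgaagagGTACTGAGGATTACA
Cit (CiCo_mm9_circ_004810, chr5:116417897-116423841, + strand, exons 24 to 27 of 47): aggcttctggaggagGTCATCACCGACCTG
Cep135 (CiCo_mm9_circ_005203, chr5:77020740-77026466, + strand, exons 2 to 6 of 26): gactacagcaagcagGCCTTTAAGTTGGGA
Cep63 (CiCo_mm9_circ_006404, chr9:102517605-102522090, - strand, exons 2 to 4 of 13): aagctgcaggaggaaTTGCCAAAACAAAGA
Cdk5rap2 (CiCo_mm9_circ_004651, chr4:69942124-69968323, - strand, exons 12 to 18 of 34): agtgccatcaacccgGAAAAGCAACAATCA
Cenpj (CiCo_mm9_circ_001902, chr14:57170760-57184004, - strand, exons 2 to 7 of 17): aagatcaaccaccagGTGTTGGAAGTCAAT
Nin (CiCo_mm9_circ_001425, chr12:71179099-71203841, - strand, exons 3 to 5 of 30): ggggactgcggcgagGTGAGCGCTGTGGGC

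At the deposited coordinates, all 69 circRNAs had AG before their start and GT after their end, the dinucleotides usual at splice sites. The ends had been predicted as back-splice junctions by find_circ, so that this count is no independent check of them. For 68 both ends were exon ends of one transcript, the exception being that of Numa1, and one Ckap5 circRNA begins at an annotated first exon, which has no intron before it. Their counted length had a median of 423 bases against 467 over all 5281 circRNAs, and both sets had a median of 3 exons. They came from transcripts with more exons (median 24.5 against 17) and were flanked by shorter introns, with medians of 2170 against 7270 bases upstream and 2508 against 5455 bases downstream. Only 10.3% began at the second exon of their transcript, against 29.8% of all circRNAs. These differences describe a list of 28 genes, of which several contribute many circRNAs, and were not tested. Ckap5 gave 11 circRNAs, Cdk5rap2 7, Mad1l1 5, and Bub1b and Cit 4 each. Since 38 of the 69 shared an exon with another circRNA on the list, and reads on a shared exon appear to be counted for each circRNA that holds it, circRNAs of a gene are not independent measurements. For 62 of the 69, the counted length matched the exons of one transcript to within a base per exon. Among the rest, those of Ckap5, Mad1l1 and Cdca3 also held counted bases outside these exons.

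Per length, the circRNAs had a median level of 7.84 RPKM in PP, 6.64 in DP and 1.84 in N (CPM per kilobase of counted length, means of 3 libraries, n = 69). Among the most abundant circRNA of each gene, the highest in PP on this scale were those of Bub1b (27.2 ± 24.4 RPKM, SD, n = 3) and Tpx2 (24.4 ± 2.20), followed by Nde1 (17.4 ± 3.13). Bub1b and Tpx2 did not differ beyond their spread, and the Bub1b mean rested on PP replicate 3. In DP the order was led by Tpx2 (20.8 ± 1.63 RPKM) and Prc1 (16.0 ± 1.03). In N it was led by Nin (16.9 ± 4.41 RPKM), and the next, Ckap5 (6.83 ± 4.92), Mad1l1 (6.69 ± 1.26) and Pcm1 (6.27 ± 4.30), did not differ from each other beyond their spread.

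**Figure D1:**
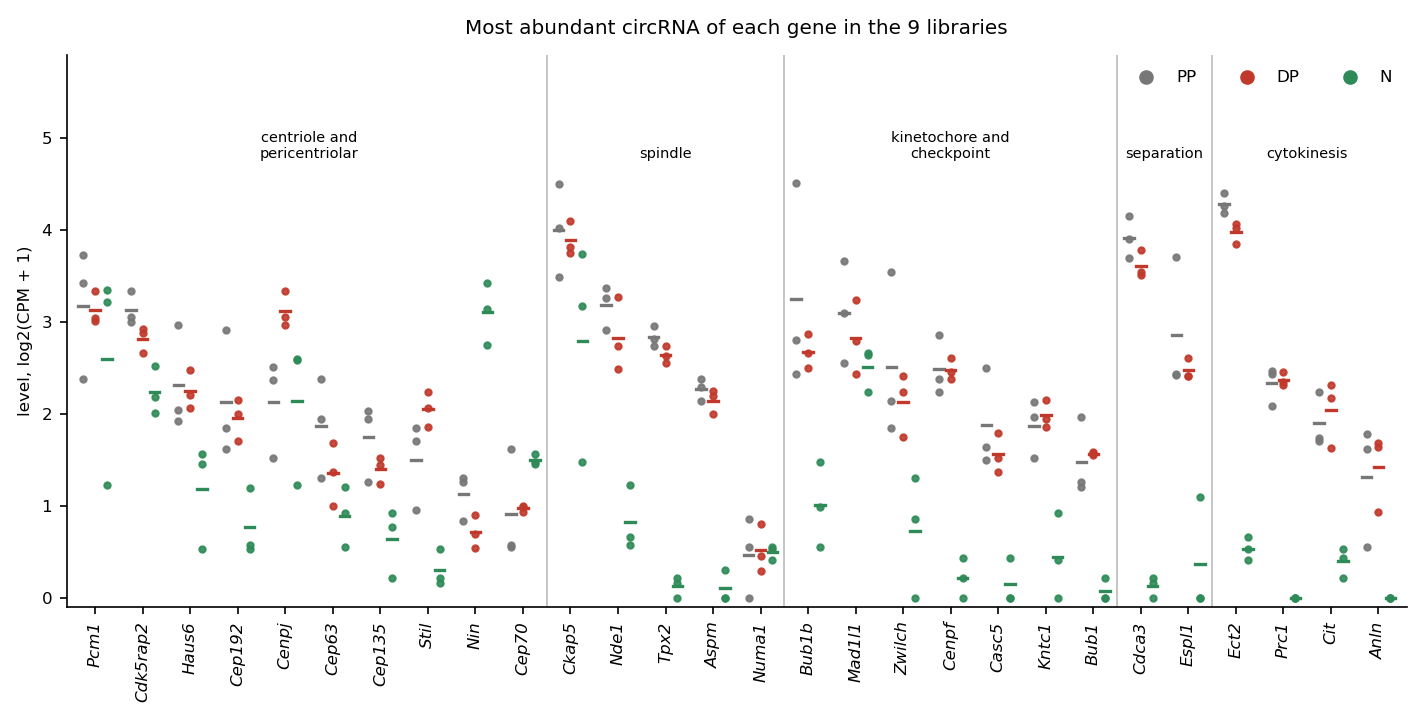
Level of the most abundant circRNA of each of the 28 genes, as log2(CPM + 1) on the vertical axis, with genes grouped by role; points are the 3 libraries of a cell type (PP gray, DP red, N green) and short lines their mean. In cytokinesis genes all N points lie under all PP and DP points, while Nin is the one gene with all N points above all others.

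Between PP and DP, no circRNA of these genes passed the test, where few of all circRNAs did. None of the 64 that passed the filter on low counts was called in either direction (edgeR's quasi-likelihood test, adjusted p under 0.05), against 1.86% of the 4406 tested in all. At an unadjusted p under 0.05 there were 5, and DESeq2 also called 0. The 5 were 3 circRNAs of Ckap5 and 1 of Cep192, which were lower in DP, and the Cenpj circRNA above, which was higher in DP. The median log2 fold change (FC) was -0.22, against -0.06 over all tested, and 48 of the 64 lay below 0, against 2399 of all 4406. All DP libraries lay on one side of all PP libraries for 11 of the 64 (17.2%, against 19.3% of all tested). Without PP replicate 3 and N replicate 1, 1 of 67 was called, the Cenpj circRNA (log2 FC 0.81), where 659 of all 4714 then tested were.

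From DP to N, 29 circRNAs fell and that of Nin rose. Of the 64 tested, 29 were lower in N and 1 was higher, together 46.9% against 18.8% of all tested, and the share lower was 45.3% against 9.8%, while 9.03% of all tested were higher. The median log2 FC was -1.35 against -0.02 over all tested, and 62 of 64 lay below 0. For 51 of the 64 (79.7%) all N libraries lay on one side of all DP libraries, against 38.9% of all tested. Fewer circRNAs per cell and fewer cells of the kind that make them cannot be told apart in sorted bulk samples, here and in all results that follow.

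From PP to N, 41 of the 64 were lower in N and 1 was higher, together 65.6% against 28% of all tested, with 64.1% lower against 14.4%, while 13.6% of all tested were higher. The median log2 FC was -1.76 against -0.10, and it was the same when the 5 tested circRNAs without any count in N were set to their bound. The N and PP libraries did not overlap for 48 (75%, against 36.5%). Without PP replicate 3 and N replicate 1 the number called was 52 of 67, where 1988 of all 4714 then tested were called, and for N against DP 49 of 67, where 1600 were. The number higher in N was 2 in both comparisons with DESeq2 and without the filter on low counts. All 3 comparisons share libraries, so that a circRNA low in N enters both comparisons with N. By FC alone (1.5-fold, no p threshold), 44 of the 64 were steady from PP to DP and lower in N, and 8 fell at both steps, where 663 and 281 of the 4406 did.

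**Figure D2:**
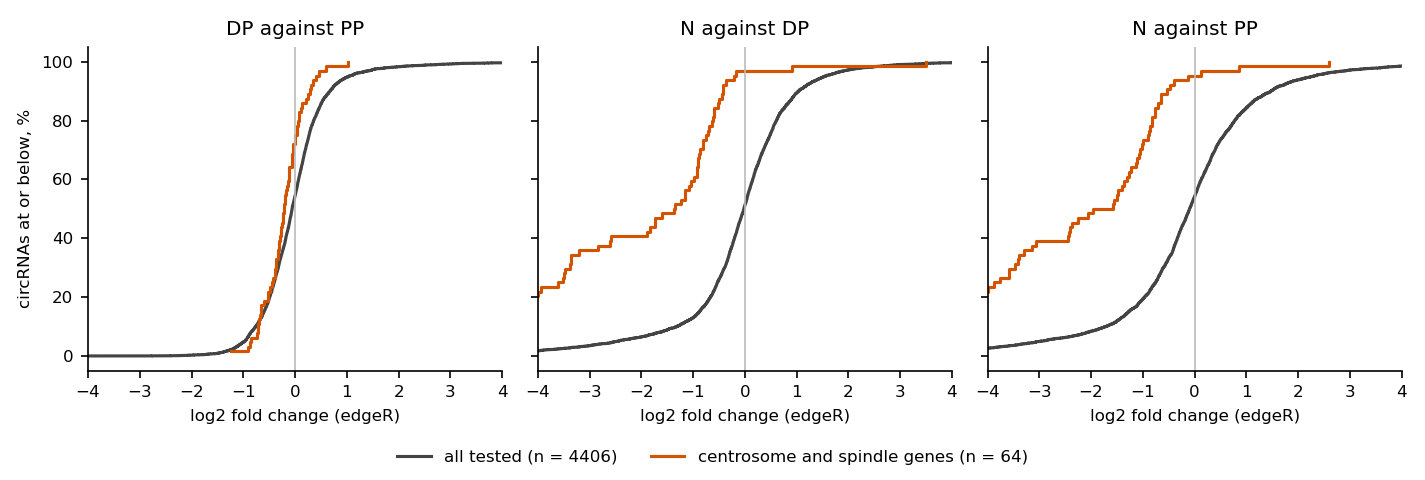
Share of circRNAs (vertical axis, percent) at or below each fitted log2 FC (horizontal axis, limited to -4 to 4) for the 64 tested circRNAs of centrosome and spindle genes (orange) and all 4406 tested (black). The curves are closer together for DP against PP, where 48 of 64 and 2399 of 4406 lie below 0. They are further apart for N against DP and N against PP, with medians of -1.35 and -1.76 for the listed genes.

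By role, the counts of circRNAs lower in N than in PP were 10 of 21 tested for centrioles and pericentriolar material, 8 of 14 for the spindle, 13 of 18 for the kinetochore and checkpoint, 3 of 3 for condensation and separation and 7 of 8 for cytokinesis, where 14.4% of all tested were lower. For N against DP they were 3 of 21, 3 of 14, 12 of 18, 3 of 3 and 8 of 8, where 9.8% of all tested were lower, so that the share for centrioles (14.3%) was near that of all circRNAs. The 1 higher call in both comparisons, Nin, belongs to the centriole role. Condensation and separation stands here for Espl1 and for Cdca3, a trigger of mitotic entry, as no condensin gene had a circRNA. In the plot of FCs by role, the median log2 FC from PP to N was -1.36 for centrioles and pericentriolar material, -1.09 for the spindle and -3.35 for the kinetochore and checkpoint. It was -3.75 for cytokinesis with the 4 circRNAs without counts in N at their bound. Of the 14 tested spindle circRNAs, 11 were of Ckap5 (log2 FC -0.65 to -1.26), which set the spindle median. Those of Nde1, Aspm and Tpx2 had -3.59, -4.79 and -5.48, and no Ckap5 circRNA passed from DP to N. The roles hold few genes and were not tested against each other.

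**Figure D3:**
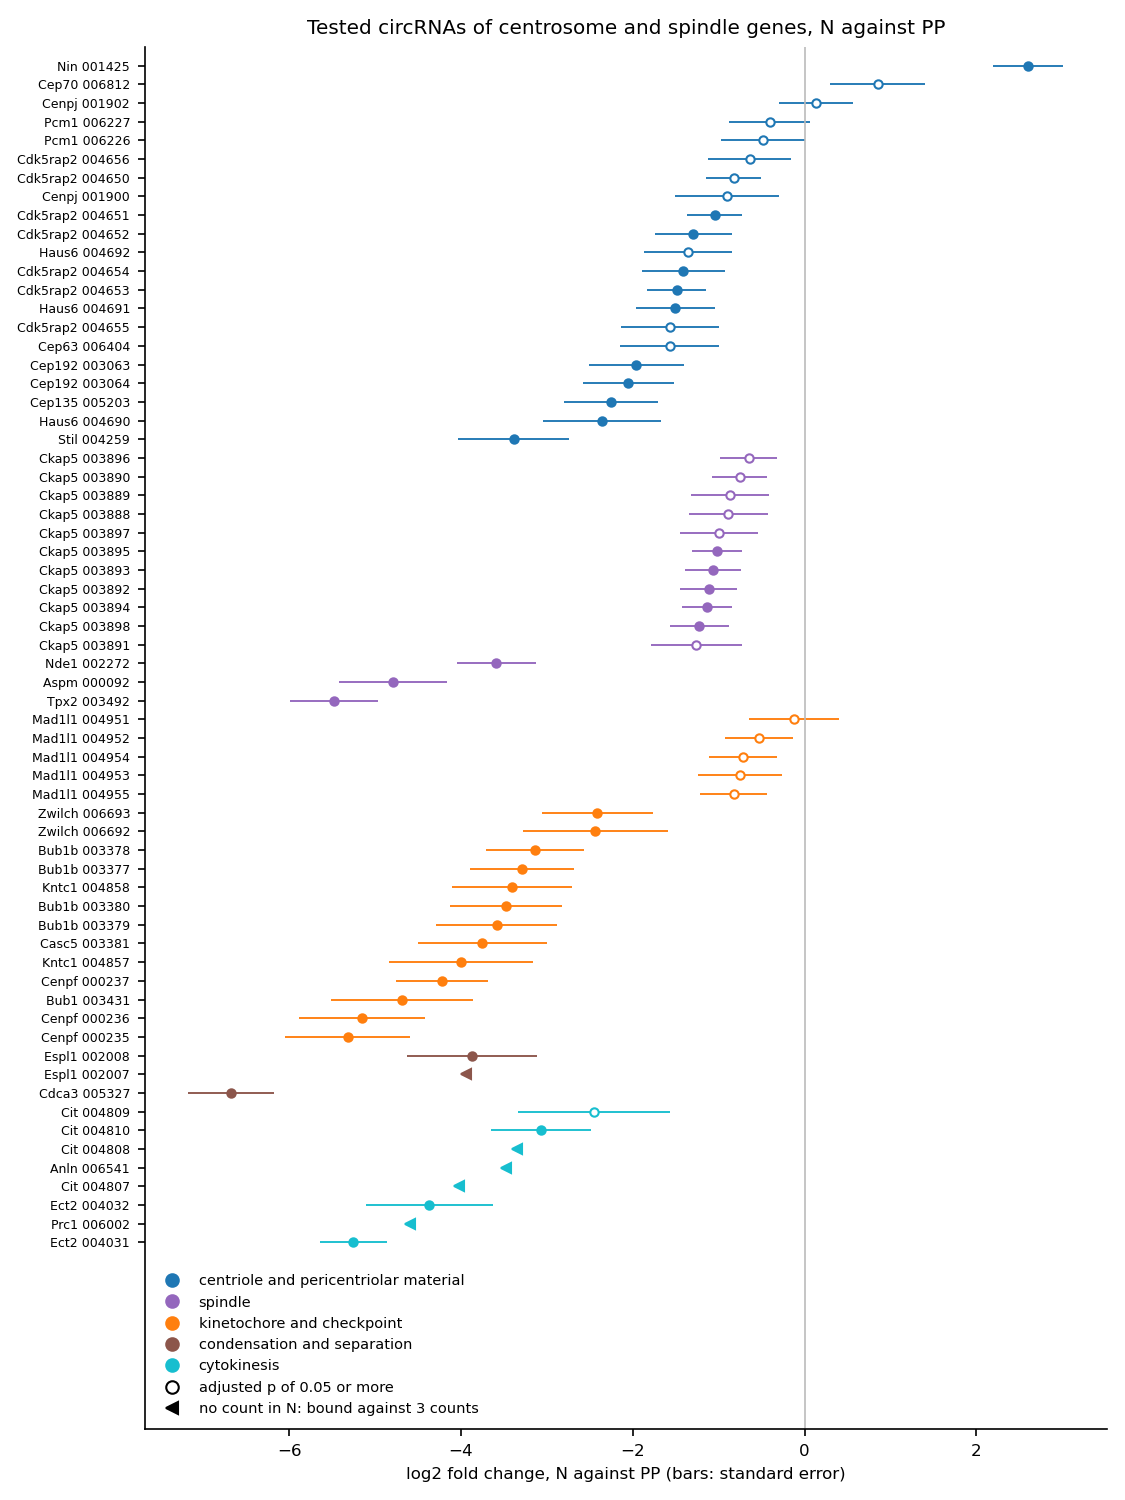
log2 FC from PP to N (horizontal axis) of the 64 tested circRNAs, each named by gene and the last digits of its identifier and colored by role; bars are standard errors, filled symbols passed the adjusted p of 0.05, and arrowheads mark circRNAs without counts in N at the bound set by 3 counts over the 3 N libraries. The symbols lie left of 0 for 61 of 64, and Nin is the one filled symbol to the right.

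Among the genes of centrioles and pericentriolar material, the circRNA of Stil, which is needed to start centriole duplication, fell most. Its level was 2.60, 2.26 and 0.930 CPM in PP, 3.17, 3.70 and 2.61 CPM in DP and 0.443, 0.116 and 0.163 CPM in N. All N libraries lay below all others, with 3 counts in N against 26 in PP, a ratio of 12.1 (95% counting interval 3.70 to 62.3). edgeR's quasi-likelihood test gave an adjusted p of 0.00130 against PP and 0.000245 against DP. The circRNA of Cep135, a centriole cartwheel and microtubule-binding protein, had 2.86, 3.07 and 1.39 CPM in PP, 1.36, 1.73 and 1.86 CPM in DP and 0.886, 0.698 and 0.163 CPM in N. Again no N library reached the others, and the FC from PP to N passed (log2 FC -2.26 ± 0.55, SE, edgeR's adjusted p = 0.00646) while that from DP did not (-1.60 ± 0.54, edgeR's adjusted p = 0.0535). The fall from DP passed in 6 of 18 alternatives, among them without PP replicate 3 and without N replicate 1.

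Cep192, a scaffold of the pericentriolar material, had a circRNA (CiCo_mm9_circ_003063) at 2.08, 2.59 and 6.51 CPM in PP, 2.27, 3.45 and 2.98 CPM in DP and 0.443, 1.28 and 0.490 CPM in N. It fell from PP (log2 FC -1.96 ± 0.56, edgeR's adjusted p = 0.0163) and from DP (-1.74 ± 0.52, edgeR's adjusted p = 0.0303), with PP replicate 3 standing high and no overlap with N. Without N replicate 3 or with total-count scaling neither passed, and the fall from DP did not pass without N replicate 1, DP replicate 2 or DP replicate 3 or against a 1.5-fold change either. For Haus6, a subunit of the augmin complex that nucleates microtubules along the spindle, the values were 3.12, 6.79 and 2.79 CPM in PP, 3.17, 4.56 and 3.60 CPM in DP and 0.443, 1.75 and 1.96 CPM in N. N lay below both others, and the fall from PP passed (log2 FC -1.50 ± 0.46, edgeR's adjusted p = 0.0243), but not without PP replicate 2 or N replicate 2, with total-count scaling, with only PP and N in the fit or against a 1.5-fold change.

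The other microcephaly genes of this role changed less or not detectably. Cdk5rap2, which recruits the microtubule nucleator gamma-tubulin to the centrosome, had its main circRNA at 9.09, 7.28 and 6.97 CPM in PP, 6.57, 5.30 and 6.34 CPM in DP and 3.55, 3.02 and 4.74 CPM in N. The 3 groups did not overlap and stood in the order of differentiation, and the fall from PP to N passed (log2 FC -1.05 ± 0.32, edgeR's adjusted p = 0.0242), though not without PP replicate 1 or N replicate 2, with total-count scaling, with only PP and N in the fit or against a 1.5-fold change. Cep63, a partner of Cep152 in centriole duplication, had 2.86, 1.46 and 4.18 CPM in PP, 1.59, 2.22 and 0.994 CPM in DP and 0.886, 0.465 and 1.31 CPM in N. N lay below PP but overlapped DP, and the FC from PP missed the threshold (log2 FC -1.57 ± 0.58, edgeR's adjusted p = 0.0573); it passed without PP replicate 2.

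Cenpj, which sets the length of centrioles, was the microcephaly gene with the highest DP values relative to PP. Its main circRNA had 4.16, 4.69 and 1.86 CPM in PP, 9.06, 7.28 and 6.83 CPM in DP and 1.33, 5.0 and 5.06 CPM in N. All DP libraries lay above all others, yet neither step passed in the fit over all libraries (DP against PP log2 FC 1.02 ± 0.41, edgeR's adjusted p = 0.304; N against DP -0.89 ± 0.39, edgeR's adjusted p = 0.144). The lowest value of PP was replicate 3 and the lowest of N replicate 1, and without these 2 libraries both steps passed (log2 FC 0.81 and -0.62). The difference between N and PP did not pass (log2 FC 0.13 ± 0.43). The study's circRNA list gives other coordinates for this identifier than the count table, whose coordinates and lengths are used here. A second circRNA of Cenpj (exons 9 to 16) had no count in PP replicate 3 and passed in no comparison, and the last was too low to test.

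Nin was the exception. It encodes ninein, which anchors microtubules at the mother centriole and, as known from other work, is redistributed when progenitors become neurons. Its circRNA of exons 3 to 5 had 0.779, 1.46 and 1.39 CPM in PP, 0.453, 0.864 and 0.621 CPM in DP and 9.75, 5.70 and 7.84 CPM in N. Every N library lay above every other library, with 119 counts in N against 15 in PP and 16 in DP. The log2 FC was 2.60 ± 0.41 from PP (edgeR's adjusted p = 0.000279) and 3.51 ± 0.40 from DP (edgeR's adjusted p = 6.04e-05), and both passed under all 18 alternatives in which it was tested. The other Nin circRNA (CiCo_mm9_circ_001424, exons 28 to 29, chr12:71121821-71126468) did not pass the filter on low counts. It had 0.519, 0.970 and 0.465 CPM in PP, 0.113, 0.493 and 0.248 CPM in DP and 3.55, 3.96 and 2.12 CPM in N, so that here too all N libraries were the highest.

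**Figure D4:**
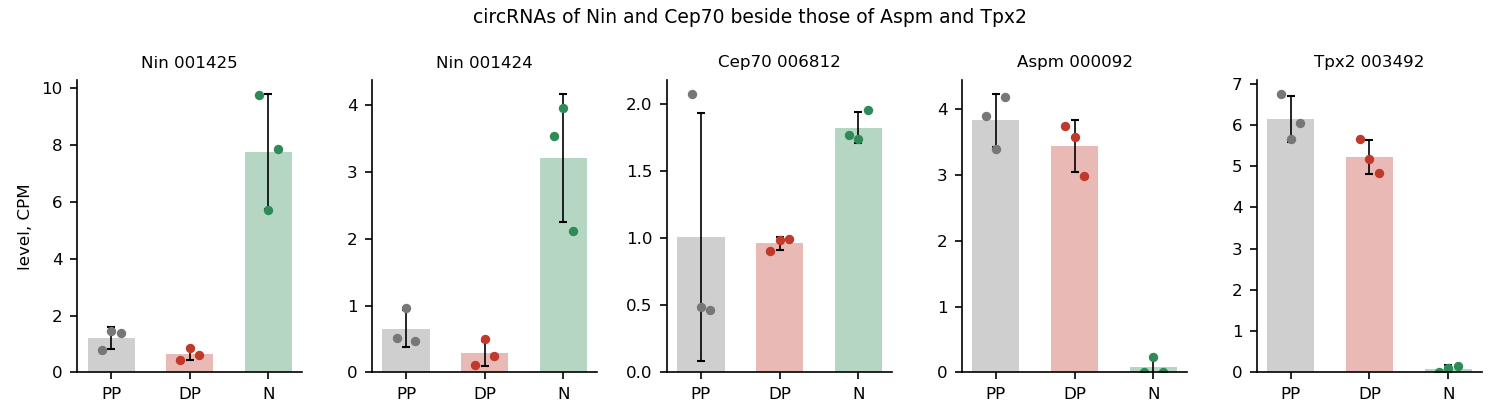
Level in CPM (vertical axes, each from 0) of both Nin circRNAs and that of Cep70, beside those of Aspm and Tpx2; bars are means, error bars SD of 3 libraries, and points the libraries. Both Nin circRNAs are highest in all 3 N libraries, Cep70 overlaps between PP and N, and Aspm and Tpx2 are near 0 in N.

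Of the spindle genes, Aspm, a spindle pole protein and the gene most often mutated in primary microcephaly, was close to lost in N. Its circRNA had 3.90, 3.40 and 4.18 CPM in PP, 3.74, 3.58 and 2.98 CPM in DP and 0, 0.233 and 0 CPM in N. PP and DP overlapped, and N held 2 counts against 45 in PP, a ratio of 31.3 (95% counting interval 8.19 to 267; edgeR's adjusted p = 6.98e-05). Tpx2, which activates Aurora A on spindle microtubules, showed the same order of levels (CiCo_mm9_circ_003492, chr2:152695389-152698952, exons 4 to 5). It had 6.75, 5.66 and 6.04 CPM in PP, 5.66, 5.18 and 4.84 CPM in DP and 0, 0.116 and 0.163 CPM in N, 51.5-fold lower than in PP (13.8 to 433; edgeR's adjusted p = 5.82e-06). Nde1, a dynein regulator needed for spindle orientation and nuclear movement, kept a low level in N. Its values were 9.35, 8.57 and 6.51 CPM in PP, 5.66, 8.64 and 4.60 CPM in DP and 1.33, 0.582 and 0.490 CPM in N, which did not overlap with the others (log2 FC from PP -3.59 ± 0.46, edgeR's adjusted p = 5.35e-05).

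Ckap5, a microtubule polymerase used in mitosis and in interphase alike, kept a higher level in N. Its most abundant circRNA (CiCo_mm9_circ_003897, chr2:91428826-91439535, exons 26 to 32) had 21.6, 15.2 and 10.2 CPM in PP, 12.5, 16.2 and 13.0 CPM in DP and 1.77, 12.3 and 8.0 CPM in N. PP overlapped both DP and N, all N libraries lay below all DP libraries (by little for N replicate 2), N replicate 1 was the lowest of all, and the log2 FC from PP to N was -0.99 ± 0.46 (edgeR's adjusted p = 0.126); it passed without PP replicate 3 or without N replicate 2. The 1 circRNA of Numa1, which tethers microtubules at spindle poles, was too low to test, at 0 to 0.809 CPM in all libraries.

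At the kinetochore, the circRNAs of Cenpf, a protein of the outer kinetochore that accumulates in G2 and mitosis, were near 0 in N. The most abundant (CiCo_mm9_circ_000237, chr1:191502818-191506830, exons 4 to 7) had 6.23, 3.72 and 4.18 CPM in PP, 5.10, 4.19 and 4.47 CPM in DP and 0, 0.349 and 0.163 CPM in N. It fell from PP by 4.22 on the log2 scale (SE 0.54, edgeR's adjusted p = 5.33e-05), with PP and DP overlapping. The other 2 Cenpf circRNAs held 1 count each in N. Bub1, a checkpoint kinase, had a circRNA (CiCo_mm9_circ_003431, exons 12 to 14) at 1.30, 2.91 and 1.39 CPM in PP, 1.93, 1.97 and 1.99 CPM in DP and 0, 0 and 0.163 CPM in N. With 1 count in N against 26 in PP, the ratio was 36.2, with a wide counting interval of 5.95 to 1485 (edgeR's adjusted p = 0.000674).

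Casc5 (now Knl1) is the kinetochore scaffold on which Bub1 and Bub1b dock. Its main circRNA had 1.82, 2.10 and 4.65 CPM in PP, 1.59, 2.47 and 1.86 CPM in DP and 0, 0.349 and 0 CPM in N, and the 3 counts in N gave a ratio of 13.9 to PP (4.33 to 71.3; edgeR's adjusted p = 0.00183). Its other circRNA had no count in any N library and at most 2.34 CPM elsewhere, too low to test. Bub1b, the checkpoint protein BubR1, had its most abundant circRNA (CiCo_mm9_circ_003380, exons 17 to 19) at 4.42, 5.98 and 21.8 CPM in PP, 4.64, 6.29 and 5.34 CPM in DP and 1.77, 0.465 and 0.980 CPM in N. N lay below all others, and the high PP replicate 3 set the PP mean. The fall passed from PP (log2 FC -3.48 ± 0.65, edgeR's adjusted p = 0.00110) and from DP (-2.60 ± 0.65, edgeR's adjusted p = 0.0106), the latter not without N replicate 2 or N replicate 3.

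The remaining kinetochore genes split. Both circRNAs of Kntc1 and both of Zwilch, subunits of the complex that removes checkpoint signals from attached kinetochores, fell from PP to N (log2 FC of the more abundant ones -3.41 ± 0.70 and -2.41 ± 0.64). For Zwilch, PP replicate 3 held 10.7 CPM for each circRNA, against 1.56 to 3.40 CPM in the other PP libraries. The less abundant Zwilch circRNA did not pass without PP replicate 3, DP replicate 2 or any one N library, with the replicate block or against a 1.5-fold change, nor the other without N replicate 2. None of the 5 circRNAs of Mad1l1, which brings Mad2 to the checkpoint, passed in any comparison. The most abundant had 7.53, 4.85 and 11.6 CPM in PP, 4.42, 5.92 and 8.45 CPM in DP and 5.32, 3.72 and 5.23 CPM in N, with all groups overlapping. One of the 5, CiCo_mm9_circ_004952, overlaps an exon of the antisense gene Gm16121, and the libraries were stranded.

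All 3 circRNAs of the 2 genes listed under chromosome condensation and separation that had any fell from PP to N. The condensin genes Smc2, Smc4, Ncapg and Ncapd3 had none analysed, so that condensation itself is not represented. Cdca3, a trigger of mitotic entry that is degraded on mitotic exit, had a circRNA (CiCo_mm9_circ_005327, chr6:124781380-124782687, exons 3 to 4) at 11.9, 13.9 and 16.7 CPM in PP, 10.4, 12.7 and 10.7 CPM in DP and 0, 0.116 and 0.163 CPM in N. It held 2 counts in N against 168 in PP, a ratio of 117 (31.9 to 974; edgeR's adjusted p = 1.06e-06). Espl1 encodes separase, which cleaves cohesin at anaphase. Its main circRNA (CiCo_mm9_circ_002008, exons 5 to 7) had 4.42, 4.37 and 12.1 CPM in PP, 4.30, 4.32 and 5.09 CPM in DP and 0, 0 and 1.14 CPM in N (log2 FC from PP -3.87 ± 0.76, edgeR's adjusted p = 0.00149). Its second circRNA, which shares exon 5, had no count in N and was at least 15.3-fold lower there than in PP.

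Of the 8 tested circRNAs of cytokinesis genes, 7 fell from PP to N. Ect2, the exchange factor that activates RhoA at the cleavage furrow, had a circRNA of 20 exons (CiCo_mm9_circ_004031, chr3:27014318-27049102, exons 2 to 21). Its values were 18.2, 20.2 and 17.2 CPM in PP, 15.3, 15.8 and 13.4 CPM in DP and 0.443, 0.582 and 0.327 CPM in N, and no groups overlapped. The fall from PP to N was 5.26 on the log2 scale (log2 FC -5.26 ± 0.39, edgeR's adjusted p = 1.06e-06), and that from DP 4.93 (log2 FC -4.93 ± 0.39, edgeR's adjusted p = 8.58e-06). This circRNA held 8 counts in N, against 232 in PP and 371 in DP.

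Prc1, which bundles the microtubules of the central spindle, had a circRNA (CiCo_mm9_circ_006002, exons 10 to 11) at 4.42, 4.53 and 3.25 CPM in PP, 3.96, 4.07 and 4.47 CPM in DP and 0 in every N library. PP and DP overlapped, and the level in N was at least 24.1-fold lower than in PP and at least 23.5-fold lower than in DP, against a floor of 3 counts over the 3 N libraries (edgeR's adjusted p = 2.64e-05 and 5.66e-05). Anln, a scaffold of the contractile ring, had 2.08, 2.43 and 0.465 CPM in PP, 0.906, 2.22 and 2.11 CPM in DP and 0 in every N library for its single-exon circRNA (CiCo_mm9_circ_006541). This was at least 11.1-fold lower in N than in PP (edgeR's adjusted p = 0.00195), and its other circRNA, also without counts in N, was too low to test.

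Cit, the citron kinase of the midbody and a microcephaly gene, kept traces in N. Its most abundant circRNA had 2.34, 2.26 and 3.72 CPM in PP, 3.51, 2.10 and 3.97 CPM in DP and 0.443, 0.349 and 0.163 CPM in N, which did not overlap with the others (log2 FC from PP -3.07 ± 0.58, edgeR's adjusted p = 0.00118). The 2 circRNAs of exons 2 to 4 and 3 to 4 had no count in N and were at least 16.3-fold and 10.2-fold lower there than in PP. That of exons 7 to 8 had 2.22, 0 and 0.163 CPM in N, so that N replicate 1 overlapped PP, and its fall passed from DP (edgeR's adjusted p = 0.0378) but not from PP (edgeR's adjusted p = 0.0523). The call from DP held in 10 of 18 alternatives and was lost with DESeq2, with the replicate block, against a 1.5-fold change and without any one DP library, N replicate 2 or N replicate 3.

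Over the 28 genes, the summed CPM of the most abundant circRNAs was 154, 147 and 168 in PP, 127, 143 and 127 in DP and 33.2, 48.5 and 51.9 in N. For the 4 cytokinesis genes the sums were 27.0, 29.4 and 24.6 in PP, 23.7, 24.2 and 24.0 in DP and 0.886, 0.931 and 0.490 in N. For the 10 genes of centrioles and pericentriolar material they were 41.8, 39.8 and 30.7 in PP, 35.8, 39.2 and 33.9 in DP and 20.8, 28.0 and 32.8 in N. The cytokinesis sum thus separated N from the progenitors in every library, whereas the centriole sum of N replicate 3 lay above that of PP replicate 3. Without Nin, the centriole sums were 41.0, 38.3 and 29.3 in PP, 35.3, 38.4 and 33.3 in DP and 11.1, 22.3 and 24.99 in N, and N was separated there too.

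Where a gene gave several circRNAs, their FCs mostly had the same sign. All 11 circRNAs of Ckap5 had a log2 FC below 0 from PP to N (-0.65 to -1.26), and 5 passed. The 2 that begin at exons 1 and 2 had 0.443 CPM each in N replicate 1, against 5.06 to 5.58 CPM in the other N libraries, and these 2 share exons. All 7 of Cdk5rap2 also lay below 0 (-0.64 to -1.56), and 4 passed. None of these 9 calls held when libraries were scaled by total counts. The median log2 FC from PP to N then moved from -1.76 to -1.99 over the members and from -0.10 to -0.37 over all circRNAs. That of the main Cdk5rap2 circRNA lay between -0.85 and -1.36 in all 18 alternatives. The 4 of Bub1b all passed from PP to N (-3.14 to -3.59). Of these, 2 lie upstream (exon 9 and exons 10 to 11), and the other 2 share exon 17. The 2 upstream Bub1b circRNAs were not high in PP replicate 3 (1.86 and 4.18 CPM), whereas the 2 downstream ones were (15.3 and 21.8 CPM). Of the 4 of Cit, 3 passed, and of the 5 of Mad1l1 none (-0.12 to -0.83).

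**Figure D5:**
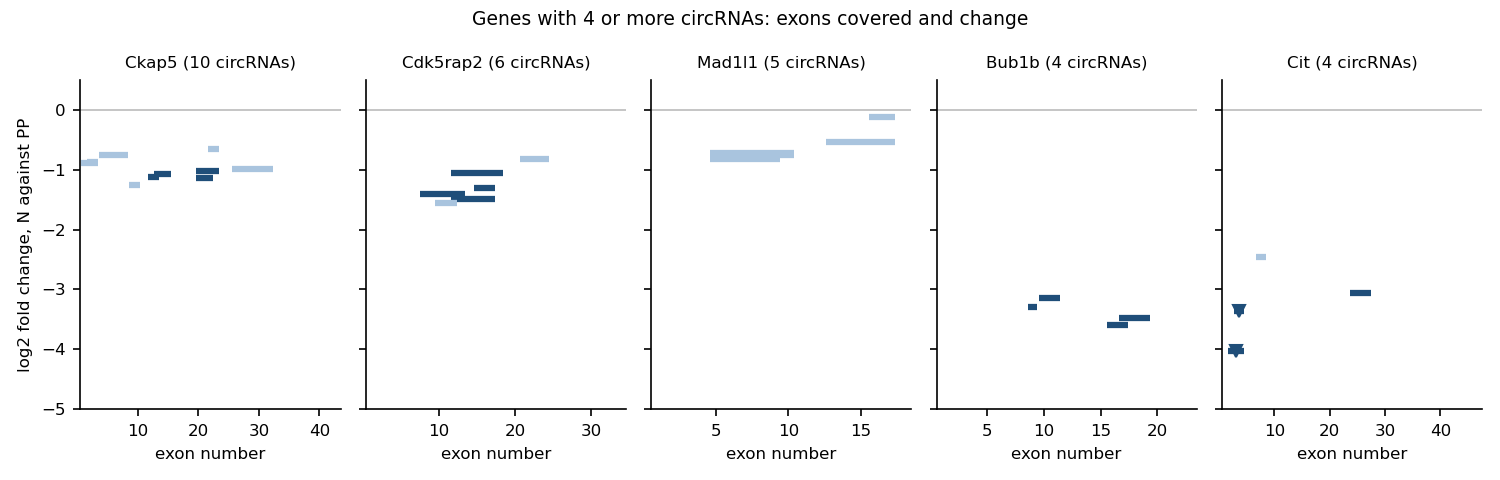
Exons covered (horizontal axis, exon number in the annotated transcript) against log2 FC from PP to N (vertical axis) for circRNAs of the 5 genes with 4 or more; dark bars passed the adjusted p of 0.05, and triangles mark circRNAs without counts in N at their bound. A circRNA of Ckap5 and one of Cdk5rap2 whose exons belong to another transcript are left out. Bars of a gene lie at similar heights for Ckap5 and Bub1b and spread for Cit.

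The 21 circRNAs of the 9 microcephaly genes (Aspm, Cdk5rap2, Cenpj, Cep135, Cep63, Stil, Casc5, Cit, Nde1) did not form a uniform group. Of the 19 tested, 12 were lower in N than in PP (63.2%, against 14.4% of all tested) and 9 lower in N than in DP (47.4%, against 9.8%), none was higher (13.6% and 9.03% of all tested were), and none passed between DP and PP. Their median log2 FC from PP to N was -1.57, and by gene the representatives ranged from 0.13 for Cenpj to the near absence of Aspm. Per length, Nde1 was the highest of the 9 in PP (17.4 ± 3.13 RPKM), followed by Casc5 (9.99 ± 5.45), and their SD ranges overlapped. Cenpj (1.30 ± 0.55) and Stil (1.62 ± 0.74) were the lowest and did not differ beyond their spread.

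Of the 64 tested, 22 did not pass between N and PP, and among these only the circRNA of Cep70 and the main one of Cenpj had a log2 FC above 0. That of Cep70, a centrosomal protein, had 2.08, 0.485 and 0.465 CPM in PP, 0.906, 0.987 and 0.994 CPM in DP and 1.77, 1.75 and 1.96 CPM in N. N lay above DP in every library but overlapped PP, and no comparison passed (N against DP log2 FC 0.91 ± 0.48, edgeR's adjusted p = 0.236). Both circRNAs of Pcm1, which organizes centriolar satellites, had log2 FCs below 0 that did not pass and overlapped between all cell types. The more abundant had 12.2, 9.70 and 4.18 CPM in PP, 7.25, 9.13 and 7.08 CPM in DP and 1.33, 8.26 and 9.15 CPM in N, with N replicate 1 the lowest (log2 FC from PP -0.41 ± 0.47).

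Another 117 genes of mitosis and the centrosome gave 98 circRNAs from 46 genes. Of the 83 tested, none was called between DP and PP (edgeR's quasi-likelihood test, 5 at an unadjusted p under 0.05), 22 were lower in N than in DP (26.5%, against 9.8% of all tested), and 27 were lower (32.5%, against 14.4%) and 2 higher (2.41%, against 13.6%) in N than in PP, with a median log2 FC from PP to N of -0.88. The smallest adjusted p among those that fell belonged to circRNAs of Mki67, a coat of mitotic chromosomes (log2 FC -5.46 ± 0.47), and Top2a, the topoisomerase that untangles them (-4.69 ± 0.45). The 2 that rose were of Clasp1 and Clip1, which bind growing microtubule ends in interphase as well. The circRNA of Clasp1 had 4.67, 7.12 and 4.18 CPM in PP, 11.4, 8.51 and 9.56 CPM in DP and 14.6, 17.1 and 16.7 CPM in N. Its 3 groups were separated in the order of differentiation (log2 FC from PP to N 1.56 ± 0.31, edgeR's adjusted p = 0.00177).

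The proliferation markers with circRNAs were also lower in N. Both are on the list of other mitosis genes above, so that they are no separate check. The 6 circRNAs of Mki67 and Top2a, the 2 of 4 general proliferation genes with circRNAs, summed to 61.0, 76.7 and 35.8 CPM in PP, 72.6, 72.4 and 62.2 CPM in DP and 2.66, 1.40 and 2.12 CPM in N. All 6 were lower in N than in PP, and the most abundant came from Top2a. How much of each fall goes with the share of dividing cells was not tested. The linear transcripts of these genes were not analysed here.

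Genes of the cell cycle that peak in G2 and mitosis often carry a CHR element (TTTGAA) and CCAAT boxes near their transcription start. RefSeq promoter windows (GRCm38.p6, 250 bases before to 50 after the start) were matched for 24 of the 28 genes, Casc5 under the symbol Knl1, giving 29 windows, of which those of Prc1 and of Ect2 overlap. Both motifs were searched on both strands, and matches may overlap, as in Kntc1. TTTGAA was in 15 of the 29 windows (51.7%) against 17.9% of all 32851 windows, CCAAT in 18 (62.1%) against 37.4%, and both in 11 (37.9%) against 6.95%. By role, TTTGAA was in 2 of 10 windows of centriole genes (20%), 2 of 4 of spindle genes, 4 of 7 of kinetochore genes, 5 of 6 of cytokinesis genes and 2 of 2 of condensation and separation genes, and both motifs were in no window of centriole genes. By gene, TTTGAA was in a window of 12 of the 18 genes with a circRNA lower in N than in PP and in 1 of the 6 without, Nin. The 6 without include Numa1, whose circRNA was too low to test. A match is a description of these letters only. The stretches around TTTGAA or its reverse complement TTCAAA, in capitals with 12 bases on each side, are shown for 8 of the 13 genes with a match, of which 6 had circRNAs at low levels in N, beside Ckap5 and Nin. The 6 genes with a circRNA lower in N but no match were Bub1, Cep135, Cit, Haus6, Nde1 and Stil, and the main circRNAs of Bub1, Cit and Stil were at 0.443 CPM or less in every N library. In Anln a second match follows in lower case.
Aspm (GRCm38.p6, chr1:139454767-139454796, + strand): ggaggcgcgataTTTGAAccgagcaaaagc
Cdca3 (GRCm38.p6, chr6:124830194-124830223, + strand): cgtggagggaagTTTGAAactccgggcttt
Espl1 (GRCm38.p6, chr15:102296254-102296283, + strand): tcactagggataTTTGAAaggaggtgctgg
Prc1 (GRCm38.p6, chr7:80294434-80294463, + strand): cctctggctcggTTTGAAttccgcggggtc
Ect2 (GRCm38.p6, chr3:27153822-27153851, - strand): cgactggattttTTTGAAtcggaggcggca
Anln (GRCm38.p6, chr9:22389168-22389197, - strand): ggggcgctgaaaTTCAAAttttgaacggcc
Ckap5 (GRCm38.p6, chr2:91526705-91526734, + strand): gcccacagctctTTCAAAcggaccaataaa
Nin (GRCm38.p6, chr12:70112116-70112145, - strand): ggcgttcccaaaTTCAAAtctccctggcgg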

How the data were processed

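The deposited values were counts per circRNA and library, which the authors did not normalize. The authors aligned reads to mm9 with gsnap, predicted back-splice junctions from unmapped reads with find_circ, set an RPKM minimum for exons and introns and counted reads on the expressed features with featureCounts (Subread 1.6.0 in the submitters' processing notes, which also name bcl2fastq 1.8.4); the version of gsnap is not given in the sources used here. All 7 pairs of table entries with the same coordinates held equal counts, as if reads on shared exons were counted for each circRNA. Counts cover all reads within the expressed features, not the junction alone.

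Parental genes came from the part of the authors' circRNA list used here, which held 1996 circRNAs (12 of the 69). For the other 57 they came from the same-strand GENCODE vM1 gene on mm9 that contains the circRNA. Deposited starts count from 0 and are given here from 1. The members and the gene lists were chosen with earlier results of these data known. Named with values in every library were the most abundant circRNA (highest mean log2 CPM, pseudocount 1) of each microcephaly gene and, per role, of the 3 other genes with the smallest adjusted p between N and PP, and any called member that moved against the majority. Of the other mitosis genes, the 2 circRNAs of smallest adjusted p in each direction were named. The values of Cep70, Pcm1, Mad1l1, Kntc1, Zwilch and Numa1 and of second circRNAs of named genes were added after they were seen.

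CPM used effective library sizes (TMM). Differences were tested with edgeR 4.0.16 in R 4.3.3 (filterByExpr, quasi-likelihood F test, cell type only, all 9 libraries) with Benjamini-Hochberg adjustment over all 4406 tested circRNAs at 0.05. In the 3 against 3 design an exact permutation test cannot go below a two-sided p of 0.1 and was not used. Ratios for circRNAs with few counts in N compare counts pooled over libraries, with exact 95% intervals that cover counting error only. Alternatives were DESeq2 1.42.0, other size factors and count filters, a replicate block, fewer cell types in the fit, a test against a 1.5-fold change and left-out libraries. On a single set of simulated counts for N against PP, edgeR recovered 80% of 90 tested 4-fold changes and 14.8% of 81 tested 2-fold changes. Small changes can thus be missed. Of its calls there, 6.67% were false (8.65% for N against DP), above the 5% aimed at. The simulation gave all circRNAs and libraries the same dispersion, with no library standing apart as PP replicate 3 and N replicate 1 do. Its rates may therefore not hold for the data. Python 3.11.15, numpy 2.4.6, pandas 2.3.3, scipy 1.17.1 and matplotlib 3.10.9 were used for the rest. Some marker genes are not reported here.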

Additional observations from a re-analysis of the deposited data

How the results depend on the processing

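The members called between DP and PP were 0 in the main analysis and under every alternative but one, the joint omission of PP replicate 3 and N replicate 1 (1 called). For N against DP, 30 became 49 without these 2 libraries and 0 of 3 tested with at least 10 counts in every library, and 25 to 43 when single libraries were left out. For N against PP, 42 became 2 of 3 tested with at least 10 counts and 20 of 42 tested with only PP and N in the fit, where fewer circRNAs pass the filter, and 36 to 47 with single libraries left out. Total-count scaling left 27 and 31 members called, and shifted the N against PP median (log2) over all circRNAs from -0.10 to -0.37 and over the members from -1.76 to -1.99. Of the 42 calls for N against PP, 28 held under each alternative in which they were tested, as did 24 of the 30 for N against DP. Calls lost belonged to Ckap5, Cdk5rap2, Cep192, Haus6, Zwilch, Bub1b and Cit. The members higher in N, 1 in the main analysis, were 1 to 2 (N against DP) and 1 to 3 (N against PP, 3 without PP replicate 1) with single libraries left out. No named circRNA that passed changed its direction.

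Over all circRNAs, calls between DP and PP (82) became 22 with total counts, 12 with at least 10 counts, 44 against a 1.5-fold change, 659 without both PP replicate 3 and N replicate 1 and 37 to 183 with single libraries left out (183 without PP replicate 3, 140 without N replicate 1). Calls for N against DP (830, 398 higher) became 407 (84 higher) with total counts, 134 with at least 10 counts, 551 against a 1.5-fold change, 1600 without these 2 libraries and 552 to 1239 with single libraries left out. Calls for N against PP (1235, 599 higher) became 649 (211 higher), 283 and 1988 in the same order without the 1.5-fold test, 735 with only PP and N in the fit, and 984 to 1638 with single libraries left out. The cause of these shifts was not tested.

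Correlations of deviations showed no pairing of the libraries by replicate number, but could not exclude one. The outlying PP replicate 3 weighed on them (0.325 with N replicate 1 and -0.339 with N replicate 2). The mean correlation of deviations was -0.0384 between same-numbered libraries and 0.0276 between others, 1 of 9 same-numbered pairs was over 0.1, and 2 of 9 libraries correlated best with their own number. A replicate block gave 48, 692 and 1061 calls over all circRNAs for DP against PP, N against DP and N against PP, and 0, 28 and 37 members called. Depth limits the low end: with 1 to 3 counts in N for 11 members and none for 7, the size of their fall is known only within wide intervals or as a bound.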

Other observations

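PP replicate 3 was more than 2-fold above both other PP libraries for 10 of the 64 tested circRNAs (15.6%), against 16.5% of all tested. The 10 lay in 7 genes: both circRNAs of Zwilch, both of Cep192, the downstream 2 of Bub1b, and 1 each of Espl1, Casc5, Ect2 and Cit. The most marked were Zwilch CiCo_mm9_circ_006692 with 1.56, 1.62 and 10.7 CPM and Bub1b CiCo_mm9_circ_003380 with 4.42, 5.98 and 21.8 CPM. The other Espl1 circRNA came close (2.60, 1.94 and 5.11 CPM), whereas the upstream circRNA of Bub1b from exon 9 was lowest in that library (6.23, 3.88 and 1.86 CPM). For the main circRNA of Espl1, DP against PP changed from a log2 FC of -0.49 to 0.08 without that library, and for that of Bub1b from -0.88 to 0.05. The cause was not tested.

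Ckap5, the gene with most circRNAs, held a second pattern in N replicate 1. Its circRNAs of exons 1 to 3 and 2 to 3 had 0.443 CPM each there and that of exons 9 to 10 had 0, against 2.44 and 1.96 CPM for the latter in the other N libraries, whereas those of exons 20 to 22 and 20 to 23 had 4.43 and 6.20 CPM against 5.12 to 6.75 CPM. At 0.443 CPM per count in that library, the low values stand for 1 count or none. The circRNAs of exons 20 to 22 and 20 to 23 had counted lengths of 762 and 892 bases, against 429 and 558 bases in these exons. Their counts can thus include reads outside these exons, which were not separated here.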
